A study of Mus musculus with 12 samples.

Results

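Transcripts of mitochondrial ribosomal proteins were followed in mouse bone marrow-derived macrophages that carried COQ6 D316Y or were wild type (WT), with or without lipopolysaccharide (LPS). The genes were all protein-coding entries of the deposited tables whose symbol begins with Mrpl or Mrps and a digit, taken once per gene identifier. They numbered 76 of 12441 genes, 47 with an Mrpl and 29 with an Mrps symbol. COQ6 is a mitochondrial enzyme of coenzyme Q synthesis. Red blood cells were lysed, the marrow was cultured for 6 days with 10% L929 conditioned medium, which supplies macrophage colony-stimulating factor, and treated cells received 100 ng/mL LPS for 24 h. The 4 groups of 3 libraries were D316Y with LPS, WT with LPS, D316Y unstimulated and WT unstimulated, so that all 12 libraries came from macrophages grown in the same conditioned medium. Whether the replicates are separate animals or cultures is not stated in the labels; a p-value here refers to the spread among libraries, which may be technical.

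The mitochondrial ribosome (mitoribosome) translates the few proteins that the mitochondrial genome encodes, all of them core subunits of the respiratory chain or of ATP synthase. Its RNAs are made inside the organelle, whereas every one of its proteins is encoded in the nucleus, made in the cytosol and imported. The Mrpl genes are named for the large subunit, which holds the catalytic centre for peptide bond formation, and the Mrps genes for the small subunit, which reads the messenger RNA. Many of these proteins descend from the bacterial ribosome, and others were added in the mitochondrial lineage.

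The names and the position of the protein in the particle did not always match. By known structure 49 of the 76 proteins belong to the large subunit, including those of Mrps30 and Mrps18a, and 26 to the small subunit. The remaining protein, that of Mrps36, is a component of the 2-oxoglutarate dehydrogenase complex of the citric acid cycle. A bacterial counterpart is known for 46 of the 75 ribosomal members, and 29 are specific to mitochondria. Mrpl33 and Mrpl53 were not analysed here. The genes lay on 17 chromosomes, with 11 on chromosome 11 and 8 on chromosome 17, and Mrpl46 and Mrps11 overlapped head to head on chromosome 7.

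All 8 macrophage markers were in the tables. Their summed level was 54940 to 63790 CPM (read counts scaled to library size) in D316Y LPS, 64660 to 70810 in WT LPS, 32530 to 35480 in D316Y unstimulated and 35130 to 39350 in WT unstimulated libraries. These sums did not overlap between LPS and unstimulated libraries, nor between genotypes with LPS, and their part in the results below was not tested. Lyz2 had by far the highest level of the 8, with group means of 15.6 and 15.8 log2 CPM in D316Y LPS and WT LPS. By group mean Cd68 and Csf1r were lower with LPS in both genotypes, and the other markers were higher. Of the markers of other cells, 5 of 8 for neutrophils, 2 of 4 for dendritic cells, 2 of 4 for fibroblasts, 1 of 4 for T cells, 1 of 4 for B cells and 0 of 4 for erythroid cells were listed. The neutrophil markers summed to 30.2 to 55.2 CPM in the 6 LPS libraries and to 7.01 to 30.0 CPM in the 6 unstimulated libraries. They did not move together. By group mean S100a8, the most abundant, and Camp were higher with LPS in both genotypes and S100a9 in WT only, whereas Ltf and Ngp were lower in both. The listed markers of the remaining cell types stayed at or below 11.4 CPM per cell type in all libraries. Whether neutrophils or any of these cells contributed to the differences below was not tested. The point mutation itself cannot be read from expression values. Library totals in the table ranged over 32.8 to 47.2 M reads, and the 76 genes had between 52 and 8580 reads in any library.

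Shown are the promoters of the 5 members with the largest mean LPS difference of both genotypes among those with a promoter in the reference used, and of Mrps6, which fell, on the scale of the authors (deposited log2 CPM, which use adjusted library sizes). This choice was made with the values known, and motifs bound by nuclear regulators of mitochondrial genes can be read in some of them. Sequences are from RefSeq (GRCm38.p6), from 250 bases before to 50 bases after an annotated start of the gene, on the gene's own strand. For a gene with several listed starts only the first listed was used, here and in the motif counts below. Capitals mark matches, on either strand, to CCGGAAG, the core bound by ETS factors such as GABP (NRF2), or to AAGATGGCG, bound by YY1. Matches to the NRF1 motif GCGCATGCG were searched as well, and none lies in these windows. Mrpl52 and Mrps24 hold a match, whereas Mrpl45, Mrpl1, Mrpl47 and Mrps6 hold none of the 3 motifs in these exact letters. Variant forms were not searched, so a stretch such as gcgcacgcg in the Mrpl45 window, close to the NRF1 letters, is neither counted nor marked. Of the 10 members with a promoter that are named below as the largest rises, 5 hold at least 1 exact match. The other 5 (Mrpl45, Mrpl1, Mrpl47, Mrpl55 and Mrpl16) hold no exact match.
Mrpl52, chr14:54426659-54426958, plus strand: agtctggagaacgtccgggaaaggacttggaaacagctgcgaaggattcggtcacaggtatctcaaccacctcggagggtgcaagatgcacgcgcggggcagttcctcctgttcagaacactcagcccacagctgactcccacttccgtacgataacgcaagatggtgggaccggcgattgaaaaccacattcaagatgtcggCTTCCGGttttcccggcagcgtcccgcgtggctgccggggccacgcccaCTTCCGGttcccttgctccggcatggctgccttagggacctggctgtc
Mrpl45, chr11:97315466-97315765, plus strand: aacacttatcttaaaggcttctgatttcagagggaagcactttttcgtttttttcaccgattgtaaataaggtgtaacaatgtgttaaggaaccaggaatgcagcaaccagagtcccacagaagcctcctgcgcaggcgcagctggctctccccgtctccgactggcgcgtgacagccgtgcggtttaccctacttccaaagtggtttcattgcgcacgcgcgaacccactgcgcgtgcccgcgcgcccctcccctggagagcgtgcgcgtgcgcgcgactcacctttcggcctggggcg
Mrps24, chr11:5707652-5707951, minus strand: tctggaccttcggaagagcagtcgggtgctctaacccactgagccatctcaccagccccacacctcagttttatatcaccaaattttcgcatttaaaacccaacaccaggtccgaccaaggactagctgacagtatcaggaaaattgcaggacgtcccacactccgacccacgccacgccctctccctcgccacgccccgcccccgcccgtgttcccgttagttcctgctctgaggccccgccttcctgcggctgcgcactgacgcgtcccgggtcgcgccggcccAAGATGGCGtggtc
Mrpl1, chr5:96209865-96210164, plus strand: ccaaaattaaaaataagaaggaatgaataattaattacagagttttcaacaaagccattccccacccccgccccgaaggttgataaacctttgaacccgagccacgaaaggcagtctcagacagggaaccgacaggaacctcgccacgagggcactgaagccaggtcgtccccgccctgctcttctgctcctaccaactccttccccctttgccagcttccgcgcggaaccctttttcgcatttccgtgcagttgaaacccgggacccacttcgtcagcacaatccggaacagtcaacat
Mrpl47, chr3:32736706-32737005, minus strand: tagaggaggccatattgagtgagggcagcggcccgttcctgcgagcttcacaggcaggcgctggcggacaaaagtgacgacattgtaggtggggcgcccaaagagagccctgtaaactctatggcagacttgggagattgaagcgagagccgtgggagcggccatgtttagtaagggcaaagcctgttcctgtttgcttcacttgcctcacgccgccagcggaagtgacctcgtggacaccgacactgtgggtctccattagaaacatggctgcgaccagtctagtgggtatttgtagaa
Mrps6, chr16:92058086-92058385, plus strand: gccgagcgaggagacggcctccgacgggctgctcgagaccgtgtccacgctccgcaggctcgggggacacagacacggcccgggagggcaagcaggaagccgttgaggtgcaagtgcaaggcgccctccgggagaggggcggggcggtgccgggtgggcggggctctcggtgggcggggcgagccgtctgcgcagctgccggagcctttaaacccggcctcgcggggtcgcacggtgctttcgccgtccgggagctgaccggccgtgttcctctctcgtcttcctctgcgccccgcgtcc

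A promoter was found for 67 of the 76 genes. Of these, 33 (49.3%) held at least 1 of the 3 motifs, against 26.5% of the 8523 protein-coding genes tested under LPS that have a promoter in the table and 11.8% of all 27025 promoters. The ETS core was in 34.3% of the members' promoters, 20.5% of those of the tested genes and 9.12% of all. The YY1 motif was in 11.9% of the members' promoters, 3.66% of those of the tested genes and 1.49% of all. The NRF1 motif was in 10.4% of the members' promoters, 4.17% of those of the tested genes and 1.81% of all. It was first searched with a further C at its end, as 10 letters, and the form of 9 letters replaced that one after its counts had been seen. The form of 10 letters was in 4.48% of the members' promoters, 2.32% of those of the tested genes and 0.977% of all, and with it 47.8%, 25.2% and 11.1% held at least 1 of the 3 motifs. No match of one of these 3 motifs overlapped a match of another in the members. In all 7 motifs were searched, and the other 4 did not set the members above the tested genes. The SP1 box GGGCGG was in 50.7% of the members' promoters and 65.3% of those of the tested genes, and the E-box CACGTG in 7.46% and 10.6%. The cyclic AMP response element TGACGTCA was in 2.99% and 3.48%, and the TATA box TATAAA in 5.97% and 6.84%. On the scale of the authors, 25 members with a promoter passed as higher with LPS in both genotypes and 28 in neither. No such split was made for calls as a share of reads. The ETS core was about as frequent in those 25 (36%) as in those 28 (32.1%). The YY1 motif was in 4 of those 25 and in 1 of those 28, and the NRF1 motif in 2 of those 25 and in 4 of those 28 (1 and 1 in the form of 10 letters). These are exact matches of fixed letters in a window, not measured binding, and variant forms of the motifs were not counted.

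As a group the mitoribosomal genes were moderately to highly expressed. Their median level over the 12 libraries was 5.21 log2 CPM, against 3.40 log2 CPM over all genes. The median SD within groups was 0.166 log2 units, against 0.253 for genes with a mean of at least 0 log2 CPM. The sets were not matched for level, and the SD of single members ranged from 0.0772 to 0.467. Per kb of exon, the highest mean levels were those of Mrps21 (7.07 log2 CPM per kb), Mrpl28 (6.83), Mrpl14 (6.77), Mrpl54 (6.74) and Mrpl52 (6.52). Neighbours in this order differed by less than the larger of their SDs within groups, which were 0.31, 0.08, 0.47, 0.26 and 0.35 log2 units for these 5 genes. Mrps21 encodes a small-subunit protein with a bacterial counterpart, and Mrpl14 a protein at the interface of the subunits. The lowest were Mrps31 (1.21 log2 CPM per kb), Mrps5 (1.11), Mrps22 (0.71), Mrps35 (0.34) and Mrps30 (-2.23), of which Mrps30 stood apart from the rest. The levels of Mrps31 and Mrps5 differed by less than the SD within groups of Mrps5 (0.22 log2 units). Of the lowest 5, 4 are small-subunit proteins, and Mrps30 sits in the large subunit despite its name. Such levels depend on the exon length of the annotation. In the assembled particle most of these proteins are present in single copy.

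LPS was the condition under which these transcripts differed. On the scale of the authors, 34 of the 76 genes passed as higher with LPS in D316Y macrophages and 1 as lower (limma, adjusted p under 0.05), but as a share of all reads 4 passed as higher and 19 as lower. In WT macrophages 38 passed as higher and 1 as lower on the scale of the authors, and 3 as higher and 18 as lower as a share of reads. Over all genes, 19.4% passed as higher and 19% as lower in D316Y, and 18.1% as higher and 19% as lower in WT, on the scale of the authors. As a share of reads, 8.78% of all genes passed as higher and 49.7% as lower in D316Y, and 7.74% and 50.5% in WT. The median log2 difference of the 76 genes on the scale of the authors was 0.43 in D316Y and 0.37 in WT, against -0.03 and -0.01 over all genes tested. In bulk samples, fewer cells of a type and less RNA per cell cannot be told apart.

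The scale decides how these values read. The deposited values are divided by adjusted library sizes, which were 0.898 of the table's reads on average in D316Y LPS, 0.874 in WT LPS, 1.28 in D316Y unstimulated and 1.24 in WT unstimulated libraries. The 10 most abundant genes, led after LPS by the ferritin subunit Fth1, the acute-phase gene Saa3 and the lysozyme gene Lyz2, took 35.1% of reads in D316Y LPS and 34.9% in WT LPS libraries. The 10 most abundant genes of unstimulated libraries, led by Fth1 and Lyz2, took 20.2% in D316Y unstimulated and 20.8% in WT unstimulated libraries. Scaling to total reads moved the median log2 LPS difference of all genes to -0.55 in D316Y and to -0.53 in WT. The 76 genes' median moved with it, to -0.08 in D316Y and to -0.14 in WT, so it remained above the median gene by 0.47 in D316Y and by 0.39 in WT. On the scale of the authors these distances were 0.46 in D316Y and 0.38 in WT. The near match follows from the method, as total-read scaling shifts all genes of a library by about the same log2 amount. As a share of reads the log2 difference was above 0 for 28 of the 76 genes in D316Y and 31 in WT, against 68 and 66 on the scale of the authors. Relative to the median gene, 69 of the 76 were higher with LPS in D316Y and 66 in WT, on either scale, for the same reason. Quantile normalization can change these values. With it the distances were 0.30 in D316Y and 0.31 in WT, and 63 and 65 of the 76 lay above the median gene.

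Together the 76 genes took 0.376%, 0.363% and 0.376% of reads in D316Y LPS libraries and 0.328%, 0.393% and 0.346% in WT LPS libraries. In unstimulated libraries they took 0.335%, 0.405% and 0.417% in D316Y and 0.300%, 0.392% and 0.393% in WT. Their 95% Wilson intervals reached at most 0.00214 percentage points either way, for counting error only. The shares overlapped between LPS and unstimulated libraries in both genotypes. The mean log2 CPM of the 76 genes did not overlap, at 5.38, 5.36 and 5.33 in D316Y LPS against 4.86, 4.96 and 5.03 in D316Y unstimulated libraries. It was 5.19, 5.52 and 5.29 in WT LPS against 4.78, 4.98 and 5.03 in WT unstimulated libraries.

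**Figure D1:**
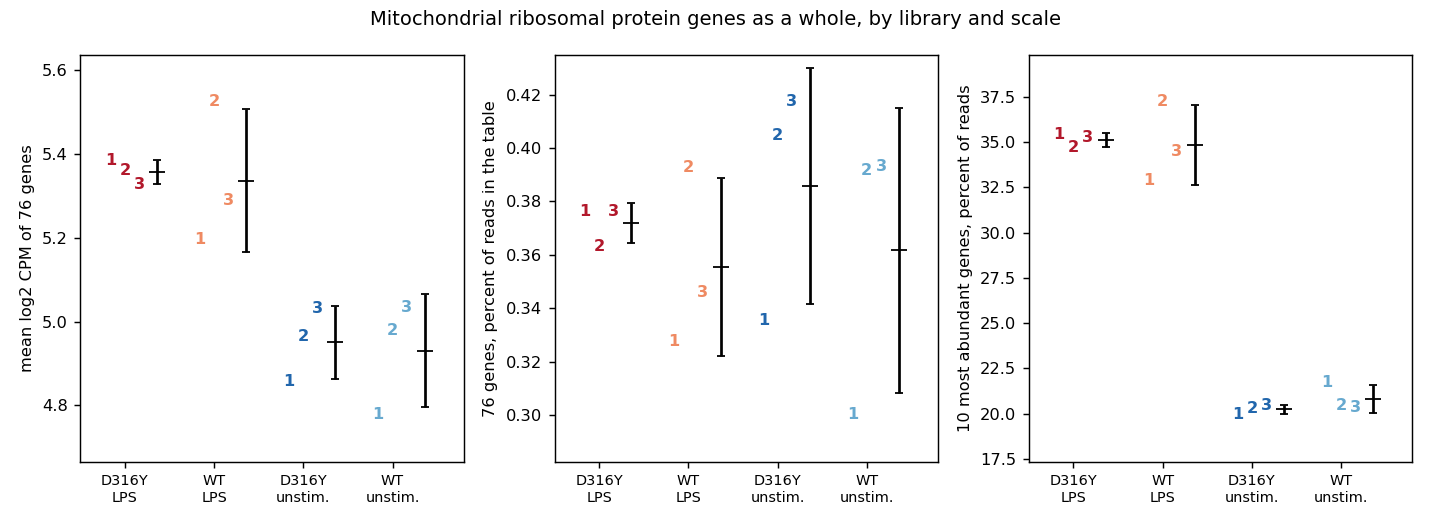
The 76 Mrpl and Mrps genes by library: mean log2 CPM on the scale of the authors (left), percent of reads in the table (middle) and percent of reads of the 10 most abundant genes (right). Digits are replicate numbers, and the bars give mean ± SD (n = 3 each); the mean log2 CPM is higher in every LPS library than in every unstimulated one (lowest 5.19 against highest 5.03), whereas the read shares overlap.

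Mrpl52, Mrpl45 and Mrpl38 had the largest mean LPS differences of both genotypes on the scale of the authors. They lay above the group medians of 0.43 in D316Y and 0.37 in WT. Mrpl52 encodes a large-subunit protein found only in mitochondria. It stood at 7.49, 7.38 and 7.47 log2 CPM in D316Y LPS libraries, against 5.42, 6.14 and 6.41 in D316Y unstimulated libraries. In WT it stood at 7.05, 7.82 and 7.36 log2 CPM with LPS and at 5.53, 6.07 and 5.84 unstimulated. No LPS library overlapped an unstimulated one. The log2 difference was 1.46 ± 0.24 (SE; adjusted p = 0.000334, limma) in D316Y and 1.60 ± 0.24 (adjusted p = 0.00018) in WT, or 2.74-fold and 3.02-fold.

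Mrpl45 encodes the large-subunit protein that faces the inner membrane at the exit of the peptide tunnel. Its levels were 6.71, 6.56 and 6.47 log2 CPM in D316Y LPS libraries, against 5.41, 5.10 and 5.05 in D316Y unstimulated libraries. In WT they were 6.75, 6.57 and 6.48 with LPS and 5.52, 5.18 and 5.30 unstimulated. The LPS libraries again lay above all unstimulated ones in both genotypes. The log2 difference was 1.39 ± 0.14 (SE; adjusted p = 4.8e-06, limma) in D316Y and 1.27 ± 0.14 (adjusted p = 1.3e-05) in WT.

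Mrpl38, a further mitochondria-specific protein of the large subunit, had 4.48, 4.56 and 4.43 log2 CPM in D316Y LPS libraries and 3.45, 3.55 and 3.81 in D316Y unstimulated libraries. In WT it had 4.62, 4.83 and 4.50 log2 CPM with LPS and 3.79, 3.58 and 3.63 unstimulated. Again no library overlapped. It differed by 0.89 ± 0.14 in D316Y (SE; adjusted p = 0.000184, limma) and by 0.98 ± 0.14 in WT (adjusted p = 8.79e-05). Mrpl38, Mrpl45 and Mrpl52 also passed as higher in both genotypes as a share of reads, with log2 differences of 0.37, 0.88 and 0.94 in D316Y and 0.47, 0.76 and 1.09 in WT. Mrpl55 passed on both scales in D316Y, with 0.92 on the scale of the authors and 0.41 as a share of reads, and on the scale of the authors alone in WT, with 0.73.

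The other largest rises were spread over both subunits. Mrps24, the counterpart of bacterial S3 at the entry of the messenger RNA, differed by 0.95 in D316Y and 0.85 in WT. It shares 15.4% of its exons with Urgcp on the same strand, and its D316Y call was lost without D316Y unstimulated replicate 1 (0.62, adjusted p = 0.0517, limma). Mrpl47 differed by 0.89 in D316Y and Mrpl1, the counterpart of the L1 stalk protein, by 0.81 in D316Y and 0.91 in WT. Mrpl35 differed by 0.79 in D316Y, and in WT Mrpl16 differed by 0.80, Mrps18c by 0.81 and Mrpl57 by 0.92. All of these passed on the scale of the authors and did not pass as a share of reads, where their log2 differences were still positive. In WT the calls of Mrpl57, Mrps24 and Mrps18c were lost without WT LPS replicate 2 (adjusted p = 0.114, 0.106 and 0.0891, limma). They were also lost without WT unstimulated replicate 1, where the differences were 0.59, 0.66 and 0.53. Those of Mrpl57 and Mrps24 were lost without WT LPS replicate 3 as well.

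**Figure D2:**
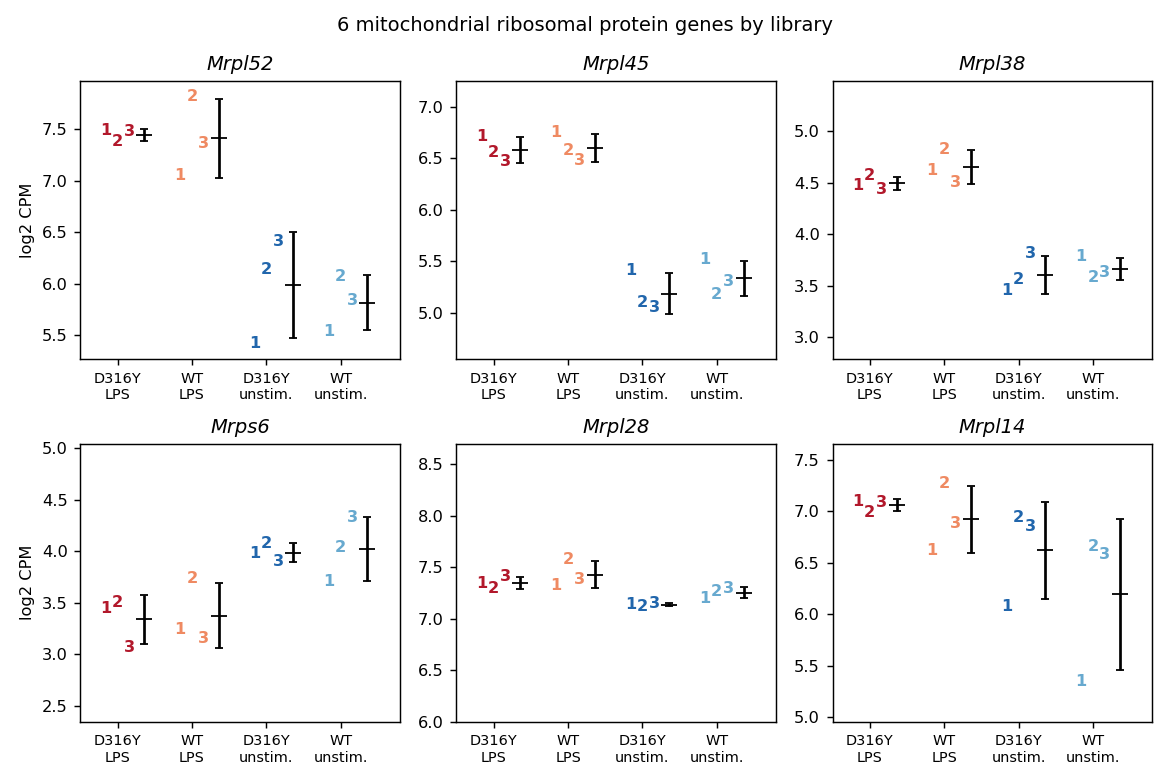
Log2 CPM of 6 Mrpl and Mrps genes in every library, on the scale of the authors; digits are replicate numbers, the bars give mean ± SD (n = 3 each), and every panel spans the same number of log2 units. The LPS libraries lie above the unstimulated ones for Mrpl52, Mrpl45 and Mrpl38 on this scale, below them for Mrps6 in D316Y, and Mrpl14 shows the widest spread.

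Mrps6 was the exception. It encodes the small-subunit counterpart of bacterial S6. It had 3.45, 3.51 and 3.06 log2 CPM in D316Y LPS libraries, against 3.97, 4.08 and 3.90 in D316Y unstimulated libraries. In WT it had 3.24, 3.74 and 3.15 log2 CPM with LPS and 3.70, 4.03 and 4.32 unstimulated. The groups were apart in D316Y, whereas in WT LPS replicate 2 lay above unstimulated replicate 1. Mrps6 fell by 0.64 ± 0.20 on the log2 scale in D316Y (SE; adjusted p = 0.0194, limma) and by 0.65 ± 0.20 in WT (adjusted p = 0.0199). It also passed as lower as a share of reads in both genotypes.

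The call for Mrps6 was close to the threshold. In D316Y it was lost without unstimulated replicate 2 (adjusted p = 0.0654, limma) or LPS replicate 3 (0.0886). In WT it was lost without unstimulated replicate 2 (0.0507), unstimulated replicate 3 (0.0955), LPS replicate 1 (0.0633) or LPS replicate 3 (0.0868). Mrps6 shares 10.4% of its exons, on the same strand, with Slc5a3, a myo-inositol transporter gene. The log2 difference of Slc5a3 was -3.03 ± 0.44 in D316Y (SE; adjusted p = 0.000113, limma) and -2.17 ± 0.45 in WT (adjusted p = 0.00174). How far its reads enter the value of Mrps6 was not tested.

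Mrpl28, which encodes a large-subunit protein with a bacterial counterpart, was among the genes with smaller LPS differences. Its SD within groups was the smallest of all 76 (0.0772). Mrpl28 had 7.34, 7.30 and 7.41 log2 CPM in D316Y LPS libraries, against 7.14, 7.12 and 7.15 in D316Y unstimulated libraries. In WT it had 7.32, 7.58 and 7.38 with LPS and 7.20, 7.27 and 7.30 unstimulated. Its LPS libraries lay above its unstimulated ones in both genotypes, but the differences of 0.21 and 0.17 did not pass on the scale of the authors (adjusted p = 0.18 in D316Y and 0.272 in WT, limma). Mrpl28 passed as lower in both genotypes as a share of reads, with log2 differences of -0.31 (adjusted p = 0.0311, limma) in D316Y and -0.33 (adjusted p = 0.0206) in WT. Mrpl14 showed the largest spread, with 6.07, 6.94 and 6.85 log2 CPM in D316Y unstimulated and 5.34, 6.66 and 6.58 in WT unstimulated libraries. Mrps25 (-0.23 in D316Y), Mrpl50 (-0.26) and Mrps5 (-0.18 in WT) had negative differences that did not pass on the scale of the authors. These 3 passed as lower as a share of reads, with -0.75, -0.77 and -0.69.

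Counted by subunit, 24 of 49 large-subunit genes passed as higher with LPS in D316Y and 28 in WT, and 0 passed as lower in either, on the scale of the authors. As a share of reads 4 large-subunit genes passed as higher and 10 as lower in D316Y, and 3 and 9 in WT. Of 26 small-subunit genes, 9 passed as higher and 1 as lower in each genotype on the scale of the authors, against 0 and 9 in each as a share of reads. The median log2 difference was 0.44 for the large and 0.37 for the small subunit in D316Y, and 0.44 and 0.28 in WT, on the scale of the authors. No test was made between subunits. Mrps36, outside the ribosome, differed by 0.62 in D316Y and 0.61 in WT on that scale and passed in both.

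By descent, 24 of the 46 members with a bacterial counterpart passed as higher and 1 as lower in D316Y, and 25 and 1 in WT, on the scale of the authors. Of the 29 mitochondria-specific members, 9 passed as higher in D316Y and 12 in WT, and 0 as lower. As a share of reads, 1 of the 46 passed as higher and 10 as lower in D316Y, and 0 and 11 in WT, while 3 of the 29 passed as higher and 9 as lower in D316Y, and 3 and 7 in WT. The 3 that rose on both scales in both genotypes, Mrpl38, Mrpl45 and Mrpl52, are all mitochondria-specific. Members in the upper part of the level range had a median difference of 0.46 in D316Y and 0.54 in WT, and those in the lower part 0.33 and 0.25, on the scale of the authors. Across the 76 genes exon length and LPS difference had a Spearman correlation of -0.28 in D316Y and -0.31 in WT, given as a description.

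On the scale of the authors the LPS differences of the genotypes had the same sign for most genes, though the intervals on the interaction, given below, are wide. Of the 76 genes, 29 passed as higher with LPS in both on the scale of the authors, which is 85.3% of those in D316Y and 76.3% of those in WT. Of all genes tested in both genotypes, 15.6% passed as higher in both. Across the 76 genes the LPS difference in D316Y and that in WT had a Pearson correlation of 0.90, as a description over genes that share their libraries. Both differences were positive for 62 genes and negative for 4 on the scale of the authors. LPS libraries lay wholly above unstimulated ones for 54 genes in D316Y and for 44 in WT, and wholly below for 3 and 0, on that scale. Over all genes 26.7% lay above and 26.1% below in D316Y, and 22.9% and 23.9% in WT.

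On the scale of the authors 5 genes passed as higher in D316Y alone, namely Mrpl36, Mrpl37, Mrps12, Mrps15 and Mrps7. In WT alone 9 passed as higher, namely Mrpl11, Mrpl20, Mrpl32, Mrpl41, Mrpl42, Mrpl57, Mrps16, Mrps21 and Mrps33. These lists do not show a difference between genotypes. The interaction, which is the LPS difference in D316Y minus that in WT, passed for 0 of the 76 genes (limma, smallest adjusted p = 0.999), and for 0% of all genes. At an unadjusted p under 0.05 it gave 0 of the 76 and 2.11% of all genes. It ranged from -0.38 for Mrps31 to 0.37, with a median of -0.00 and a median 95% half-width of 0.461 log2 units. The interval lay within 1 log2 unit of 0 for 72 of the 76 genes.

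**Figure D3:**
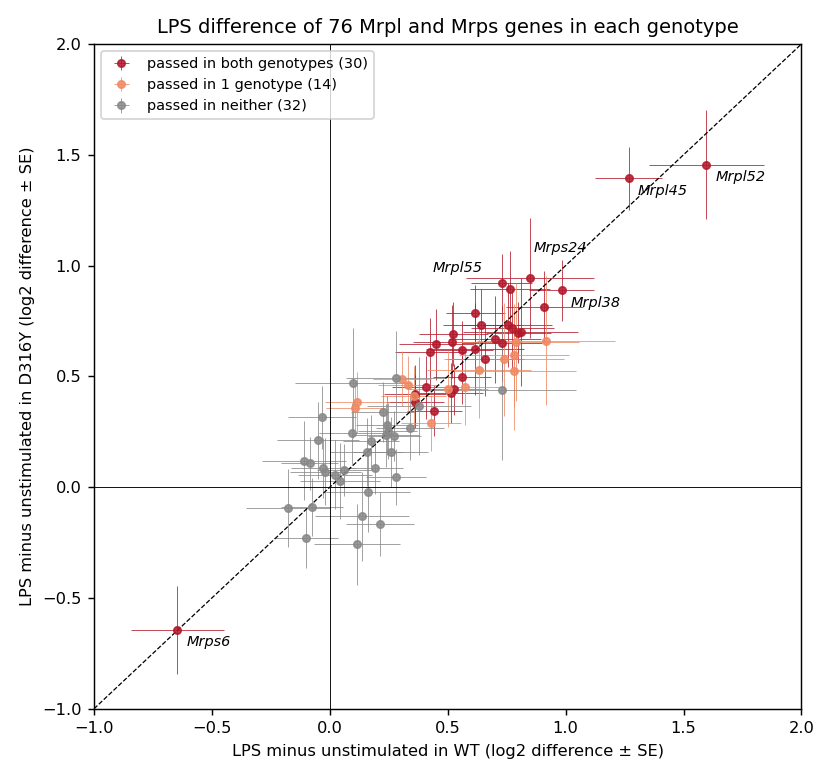
LPS minus unstimulated log2 difference of the 76 genes on the scale of the authors in D316Y (vertical) and in WT (horizontal), with SE from limma; the dashed line marks equal differences. The points follow the dashed line, with Mrpl52 (1.46 and 1.60) and Mrpl45 (1.39 and 1.27) at the top and Mrps6 (-0.64 and -0.65) at the bottom, and 30 genes, Mrps6 among them, passed in both genotypes.

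The genotype itself left no difference that passed. Among unstimulated macrophages 0 of the 76 genes passed between D316Y and WT (limma, smallest adjusted p = 0.942), against 0.00868% of all genes. With LPS 0 passed (smallest adjusted p = 0.817), against 0.0442% of all genes. At an unadjusted p under 0.05 the counts were 0 of the 76 in both, against 2.92% of all genes unstimulated and 6.5% with LPS. By the adjusted p of the authors' deposited table, none of the 76 genes (0) fell under 0.05 in either comparison, with smallest values of 0.298 unstimulated and 0.269 with LPS. By the authors' unadjusted p, 1 fell under 0.05 unstimulated (Mrpl52) and 2 with LPS (Mrpl47 and Mrpl55). The share of all genes by that p was not counted.

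The D316Y minus WT differences were small in both directions. Unstimulated, 38 were positive and 38 negative, from -0.35 for Mrps34 to 0.43 for Mrpl14, with a median of 0.00. With LPS 51 were positive and 25 negative, from -0.25 for Mrps27 to 0.31, with a median of 0.03. The 95% interval had a median half-width of 0.386 log2 units unstimulated and 0.300 with LPS, and lay within 1 log2 unit of 0 for 75 and 76 of the genes. In a fit with the replicate number as a block, which pairs the unstimulated libraries, the median half-width was 0.243 log2 units. With the block 0 of the 76 passed (smallest adjusted p = 0.144, for Mrpl14, limma), 4 were higher and 1 lower at an unadjusted p under 0.05, and 18.4% of all genes were under 0.05 in either direction. D316Y was above WT in all 3 pairs for 17 of the 76 genes and below it in all 3 for 10, against 20.7% and 22.2% of all genes. Mrpl14 differed by 0.73, 0.28 and 0.27 log2 units in the 3 pairs. The read share of the 76 genes together, given by library above, was higher in D316Y in each pair. With 3 libraries per group, differences smaller than these half-widths cannot be told from 0. Larger ones could also miss the threshold, as it is adjusted over all genes and the intervals are not.

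A few genes were apart between genotypes without passing. Mrps31, a mitochondria-specific small-subunit protein, had 3.13, 3.10 and 2.88 log2 CPM in unstimulated D316Y libraries and 2.80, 2.75 and 2.83 in unstimulated WT libraries. Mrpl37 had 4.78, 4.72 and 4.83 log2 CPM in unstimulated D316Y and 5.09, 5.02 and 4.91 in unstimulated WT libraries. These groups did not overlap, and neither did those of Mrpl28, which was lower in D316Y. Apart from these, no unstimulated group was apart. Over all genes 2.95% lay wholly higher and 5.18% wholly lower in D316Y. With LPS Mrpl46 alone was apart, lower in all D316Y libraries, at 5.04 ± 0.03 log2 CPM in D316Y and 5.23 ± 0.13 in WT (SD, n = 3 each), against 5.7% of all genes higher and 6.79% lower.

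**Figure D4:**
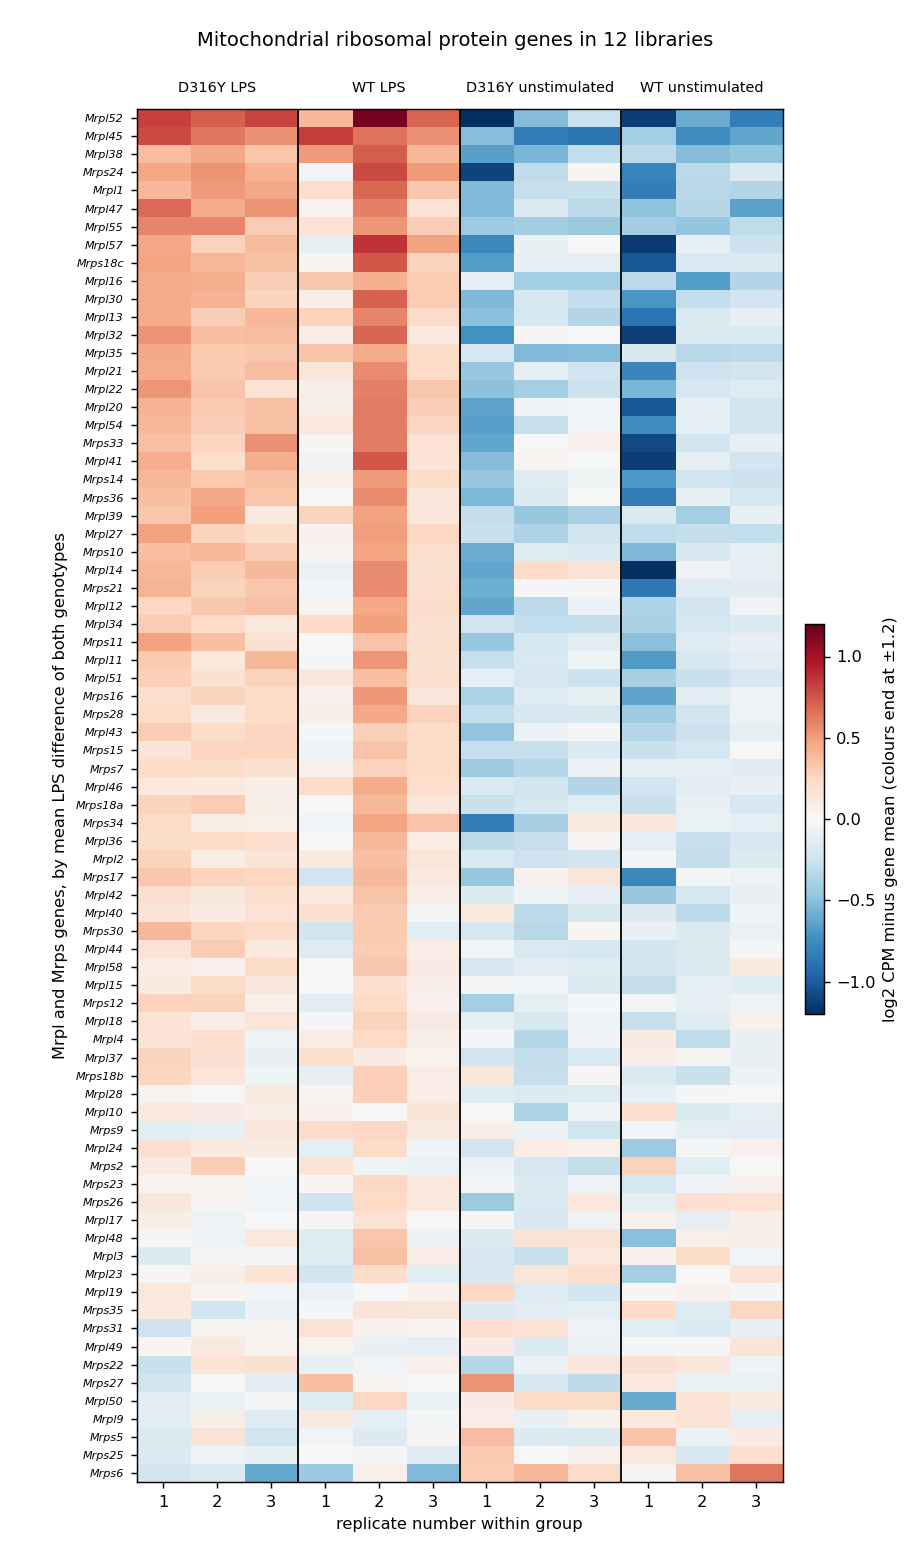
Log2 CPM of the 76 genes in 12 libraries, each gene minus its mean over all libraries, on the scale of the authors, sorted by the mean LPS difference of both genotypes. Most genes are red (higher) in the LPS columns on this scale, Mrps6 at the bottom is blue there except in WT LPS replicate 2, and WT LPS replicate 2 and WT unstimulated replicate 1 stand out.

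In some groups 1 library was the highest or the lowest for most members. WT LPS replicate 2 was the highest of its group in 64 of the 76 genes and WT LPS replicate 1 the lowest in 53. WT unstimulated replicate 1 was the lowest of its group in 46 and the highest in 16. D316Y unstimulated replicate 1 was the lowest in 42 and the highest in 25, so members were split there. The D316Y LPS libraries were the lowest in 14, 27 and 35. Such counts were not made over all genes. The number of genes passing as higher with LPS in WT, 38 on the scale of the authors, was 18 without WT LPS replicate 2. It was 21 without WT unstimulated replicate 1 and 25 without WT LPS replicate 3.

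The same unstimulated libraries were also low in transcripts of mitochondrially encoded genes and of cytosolic ribosomal proteins. Mitochondrially encoded genes took 0.945%, 2.96% and 2.19% of reads in D316Y unstimulated libraries and 0.446%, 2.14% and 1.96% in WT unstimulated libraries. Genes of cytosolic ribosomal proteins took 5.21%, 9.24% and 8.63% in D316Y unstimulated and 3.61%, 7.49% and 7.31% in WT unstimulated libraries. In both genotypes replicate 1 was lowest, and in each pair of 1 number D316Y was higher for both gene sets. Whether this bears on the members' values was not tested.

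Exon sequence is shared with another annotated gene in 31 members. The strand setting of the counting is not given in the sources used here, so their values are uncertain. In 5 of them a single other gene with deposited values covers over 20% of the exon bases. Mrps25 shares 69.8% of its exon bases with Nr2c2, Mrps34 63.4% with Mapk8ip3, Mrpl19 36% with Gcfc2, Mrpl43 33.4% with Twnk and Mrpl24 26.3% with Rrnad1, all on the opposite strand. Of these 5, Mrpl43 passed as higher with LPS on the scale of the authors, by 0.45 in D316Y and 0.41 in WT. Mrps34 also shares 37% with Nme3 on the same strand. Among the largest rises named above, Mrps18c shares 23.2% with Gm43511 on the same strand. Mrpl47 shares 13.9% with Ndufb5 and 10.2% with Actl6a, both on the opposite strand. Nme3 and Gm43511 have no deposited values. The head-to-head pair differed with LPS by 0.35 (Mrpl46) and 0.61 (Mrps11) in D316Y and by 0.44 and 0.43 in WT, and passed in both genotypes on that scale. Mrpl52, Mrpl45 and Mrpl38 share no exon base with another gene of the annotation.

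Other genes that serve mitochondrial translation were counted by list, with no test between lists. Among 5 mitoribosomal proteins with other names, 3 passed as higher with LPS in D316Y and 4 in WT, with medians of 0.44 and 0.50 on the scale of the authors. As a share of reads 0 passed as higher and 1 as lower in each. They were led by Gadd45gip1, a large-subunit protein that differed by 0.82 in D316Y and 0.68 in WT. Dap3, a GTP-binding protein of the small subunit, differed by 0.44 and 0.50 on the scale of the authors, and by -0.07 and -0.01 as a share of reads. Of 13 mitochondrial translation factors tested, 3 passed as higher and 3 as lower in D316Y, and 0 and 1 in WT, with medians of 0.02 and 0.05 on the scale of the authors. Gfm2, the elongation factor that recycles ribosomes, fell by 0.46 in D316Y and by 0.52 in WT.

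Of 27 genes of mitoribosome assembly and rRNA modification, 3 passed as higher and 0 as lower in D316Y, and 1 and 2 in WT, on the scale of the authors. On the total-read scale 1 passed as higher and 12 as lower in D316Y, and 0 and 15 in WT. Mpv17l2, an inner membrane protein needed for assembly, differed by 1.05 in D316Y and 0.82 in WT, and Noa1, a GTPase of small-subunit assembly, fell by 0.86 in WT. Of 21 genes of mitochondrial transcription and RNA stability, 3 passed as higher and 1 as lower in each genotype on the scale of the authors, against 1 and 10 in D316Y and 0 and 10 in WT as a share of reads. Pnpt1, an RNA-degrading enzyme, differed by 0.97 in D316Y and 0.63 in WT. Twnk, the mitochondrial DNA helicase, fell by 0.72 in D316Y and by 1.08 in WT, and it shares exons with Mrpl43.

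Among 9 nuclear regulators of mitochondrial genes, 3 passed as higher and 1 as lower with LPS in D316Y, and 1 and 1 in WT, on the scale of the authors. Scaled to total reads, 1 passed as higher and 5 as lower in each genotype. Ppargc1b, a coactivator of mitochondrial gene programmes, differed by 1.46 in D316Y and 1.41 in WT. Myc, a transcription factor that drives ribosome production, fell by 4.32 in D316Y and by 5.31 in WT. Of the 13 mitochondrially encoded genes, whose messages the mitoribosome translates, 0 passed as higher and 1 as lower in D316Y (mt-Nd3, -1.59), and 0 of 12 tested in WT, on the scale of the authors. On the total-read scale 0 passed as higher and 3 as lower in D316Y, and 0 and 1 in WT. Their median differences were -0.61 in D316Y and -0.25 in WT, against 0.43 and 0.37 for the 76 genes. Of 86 cytosolic ribosomal protein genes, 2 passed as higher and 2 as lower in D316Y, and 2 and 1 in WT, with medians of -0.14 and 0.16. As a share of reads, 0 of the translation factors passed as higher and 7 as lower in D316Y, and 0 and 8 in WT. Of the cytosolic ribosomal protein genes 0 passed as higher and 34 as lower in D316Y, and 0 and 20 in WT, on that scale. No gene of these lists passed in either genotype comparison or in the interaction (limma).

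**Figure D5:**
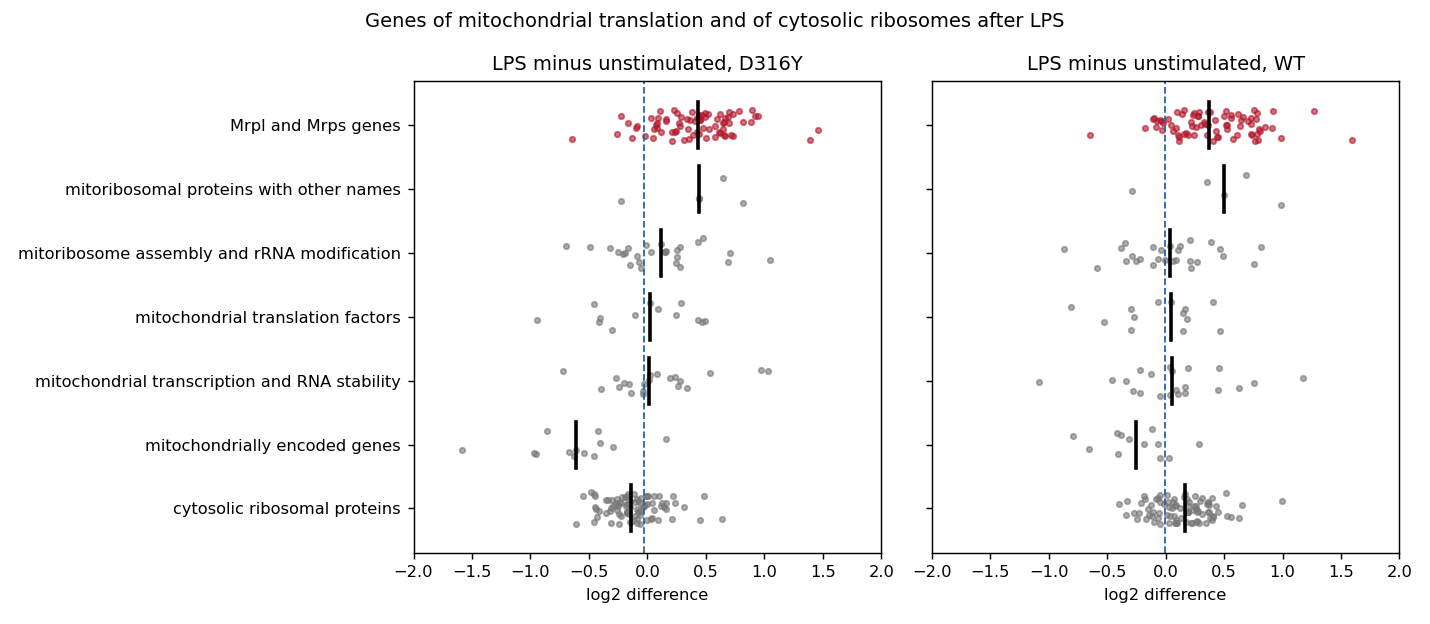
LPS minus unstimulated log2 difference on the scale of the authors in D316Y (left) and WT (right), 1 point per gene, with the median of each list as a black bar and the median of all genes tested as a dashed line. The 76 Mrpl and Mrps genes (red) have medians of 0.43 and 0.37 on this scale, and mitochondrially encoded genes have -0.61 and -0.25.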

How the data were processed

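RNA sequencing of 12 macrophage libraries was deposited as 2 tables of 12493 entries, which hold the same log2 CPM values (log2 of read counts scaled to library size) of all libraries per the file headers. Each file adds the authors' deposited log2 fold change, p-value and adjusted p-value for 1 genotype comparison. The submitters' processing notes list, without roles, STAR 2.5.1a and bcl2fastq, featureCounts 1.4.6-p5 of Subread, and limma with edgeR. Not given in the sources used here are the genome build, the annotation and the strand setting. After 52 repeated identifiers were taken once, 12441 genes remained, all found by identifier in GENCODE M21 (GRCm38), which gave positions and exon lengths. Symbols of 4 pseudogene entries matched but were left out.

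In each library 100% of the deposited log2 values under 200 reads lay within 0.01 of a whole read, so reads per gene were recovered for shares and total-read scaling. A change of a low gene is understated on the log2 scale, which adds a small constant to the reads. Shares of reads cover counting error only in their 95% Wilson intervals, as PCR copies were not marked by molecular identifiers.

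Because the deposited values are log2 CPM, limma 3.58.1 was run for every comparison (data.table version 1.17.8, R 4.3.3), with 1 linear model for each gene and eBayes (trend and robust), on genes whose mean reached 0 log2 CPM in 1 or more of the groups compared. Tests were two-sided, p-values were adjusted by Benjamini-Hochberg over all genes fitted, and adjusted p under 0.05 passed at any fold. Each genotype comparison was fitted to its own 6 libraries, and LPS contrasts with the interaction to all 12 together. The fit was tested on simulated data. Lists are described by counts and medians, with no test over a list.

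Deviations from group means correlated at 0.656, 0.630 and 0.200 across genes between unstimulated D316Y and WT libraries of the same number. Pairing these libraries by number rests on such values alone, as the labels do not state it, and the main fits do not use it. Between the LPS groups the values were -0.140, 0.0859 and -0.0136. Between LPS and unstimulated libraries they were 0.422, 0.231 and -0.0922 in WT and -0.189, -0.248 and -0.102 in D316Y.

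Members and lists were chosen with earlier results of these data known. In each comparison up to 8 rises and 8 falls past the threshold are named, filled to 4 by unadjusted p, plus the 5 highest and 5 lowest levels per kb and up to 3 genes of each other list; a selection is printed. Single genes outside this rule (Mrps11, Mrps36, Mrpl43 and those counted in a single genotype) were chosen after their values were seen. The alternatives were 52 planned and 1 added: other normalizations, filters, weights, moderation, left-out libraries, the replicate block and total reads.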

Additional observations from a re-analysis of the deposited data

How the results depend on the processing

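The LPS result depended on scaling and on single libraries. For D316Y the 34 genes passing as higher became 19 with quantile normalization and 52 with array weights, and 23 to 32 when 1 library was left out. For WT the 38 became 19 with quantile normalization, 23 when only the 6 libraries compared were fitted, and 18 to 40 when 1 library was left out. The 1 gene passing as lower became 2 in D316Y and 4 in WT with array weights, 0 in WT with only the 6 libraries, and 0 to 1 in both when 1 library was left out. With quantile normalization the D316Y median was 0.28. Scaling to total reads, an alternative chosen after seeing the data, gave 4 higher and 19 lower in D316Y (median log2 difference -0.084) and 3 higher and 18 lower in WT (median -0.14). The cause of these shifts was not tested, except that the total-read scale by construction includes the reads of the most abundant genes.

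The calls of Mrps24 (both genotypes), Mrpl57 and Mrps18c (WT) were lost with quantile normalization, and those of Mrpl57 and Mrps6 in WT with only the 6 libraries (adjusted p = 0.0518 and 0.0517, limma). Under no alternative run, total reads included, did the LPS difference of a gene named as a largest rise or fall change sign. With total reads several genes named elsewhere did, in D316Y and WT: Mrpl28 to -0.31 and -0.33, Mrpl43 to -0.06 and -0.10, Mrpl46 to -0.17 and -0.07, Dap3 to -0.07 and -0.01, and in 1 genotype Mrpl14 (D316Y, -0.08) and Mrps11 (WT, -0.08). With the replicate number as a block, 41 genes passed as higher and 1 as lower with LPS in D316Y and 40 and 1 in WT, and 0 in both genotype comparisons and the interaction, so that the block moved no count past the limit of 1.5 times. The 0 counts of both genotype comparisons and of the interaction held under every alternative run. Without division by length, 3 of the 5 genes highest per kb were in common. With 3 libraries per group, differences smaller than the half-widths given cannot be told from 0, and larger ones could also miss the adjusted threshold.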
